A study of Caenorhabditis elegans with 12 samples.

Results

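RNA signals of genes of fatty acid synthesis and desaturation in the nematode Caenorhabditis elegans were compared under a pharmacological ER stress and in manf-1 mutants. The genes described are the 7 fatty acid desaturases fat-1 to fat-7, the fatty acid synthase fasn-1, the acetyl-CoA carboxylase pod-2 and sbp-1, the worm SREBP transcription factor. The genes were listed by name, with earlier results of these data known, and every probe set that the platform annotation assigns to one of these 10 genes and to no other gene was taken. That gave 11 probe sets for the 10 genes, among 17118 genes with a probe set of their own. After a filter on dim probe sets 9 of the 10 genes were tested, among 10844 genes. The gene without a tested probe set was fat-7.

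Whole, synchronized first-stage (L1) larvae were profiled on 1-colour Affymetrix C. elegans arrays, in wild type (N2) and in the mutant manf-1(tm3603), each in vehicle (DMSO) or in tunicamycin (TM), with 3 arrays in each of the 4 groups. The larvae of all groups had hatched on plates without bacteria, were washed off after 24 h and were then treated for 5 h. Tunicamycin blocks N-linked glycosylation and so loads the endoplasmic reticulum (ER) with misfolded proteins. MANF-1 is the worm homologue of the ER-resident and secreted neurotrophic factor MANF. The labels give the tunicamycin dose as 5, per mL in one field and per uL in another, in ug. The mutant groups rest on the single allele tm3603, every larva had been kept without food, and RNA came from the whole body. In such bulk samples fewer cells of a type and less RNA per cell cannot be told apart. Nothing in the labels says that the 3 arrays of a group came from separate cultures, so p-values here speak only of the spread among arrays, which may be technical.

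Fatty acids are made in C. elegans by POD-2, which turns acetyl-CoA into malonyl-CoA, and by FASN-1, which joins malonyl units into palmitic acid. Desaturases in the ER membrane then add double bonds: FAT-5 acts on palmitic acid, FAT-6 and FAT-7 on stearic acid to give oleic acid, and FAT-2 on oleic acid to give linoleic acid. FAT-3 and FAT-4 act on the longer path to arachidonic and eicosapentaenoic acid, and FAT-1 turns omega-6 into omega-3 fatty acids. SBP-1 activates genes of synthesis and delta-9 desaturation. The pathway is known to be tied to ER stress, because the saturation of membrane lipids by itself can engage the unfolded protein response.

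Of the 9 tested genes, 0 passed the threshold in any of 7 comparisons of treatment and genotype. Over all tested probe sets the share that passed ran from 0.0068% to 1.9% over these comparisons. At such shares 0 of 9 does not set the members apart. For tunicamycin averaged over both genotypes the 95% interval of the log2 change of every one of the 9 lay within 2-fold in either direction. This holds by the probe set that stands for each gene, and in each genotype alone it held for 5 of the 9. For fat-4 the average combines changes of opposite sign, 0.54 in wild type and -0.50 in mutants. In the same larvae 11 of 12 ER chaperone genes rose, with a median log2 change of 2.26, and hsp-4, the inducible worm BiP, rose by 3.39 ± 0.21 (SE; adjusted p = 1.15e-06). Changes were fitted with limma over all 14709 probe sets that passed the filter, each change is a difference of mean log2 signals with limma's standard error (SE), and adjusted p is by Benjamini-Hochberg within a comparison, with a threshold of 0.05. The 95% intervals are for one gene at a time and are not adjusted for the number of genes.

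Signals are the deposited log2 values, and how they were normalized between arrays before deposit is not stated. Array medians lay between 3.96 and 4.05 and no 2 arrays were identical. The 4 arrays with replicate number 2 stood apart in the 3′ minus 5′ log2 difference averaged over 8 control transcripts, which was 0.22 to 0.29 on them and 0.48 to 0.80 on the other 8 arrays. Each group holds 1 of these 4 arrays. The level of manf-1 was not analysed here, so the genotype labels were not checked against it. The 32 control probe sets for bacterial and yeast transcripts lay at 2.23 in the median, and 95% of them under 3.34, which is used below as the level of background. A probe set's signal depends on its own probes, so levels are compared between groups and never between genes.

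The 4 desaturases of polyunsaturated fatty acid synthesis gave signals far above background on all 12 arrays. Fat-1, the omega-3 desaturase, read 10.39, 10.73 and 10.66 in wild type with vehicle and 10.43, 10.61 and 9.80 with tunicamycin. In mutants it read 10.34, 10.86 and 10.84 with vehicle and 10.33, 10.10 and 10.33 with tunicamycin. The 3 treated mutant arrays all lay below the 3 untreated ones, the nearest pair being 10.33 and 10.34, while in wild type 1 treated array was low and the others fell among the controls. Averaged over genotypes the log2 change of fat-1 was -0.37 ± 0.16 (SE; 95% interval -0.72 to -0.02). Its limma p was 0.04 unadjusted and 0.409 adjusted over all probe sets.

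Fat-2, the desaturase that makes linoleic acid, varied least. It read 10.62, 10.73 and 10.98 in wild type with vehicle, 10.67, 10.68 and 10.51 in wild type with tunicamycin, 10.81, 10.87 and 10.97 in mutants with vehicle and 10.72, 10.62 and 10.71 in mutants with tunicamycin. Its SD within groups, pooled over the 4 groups, was 0.115, against a median of 0.51 over all tested probe sets, and only 0.27% of them had a smaller one. The mutant groups did not overlap and the wild-type groups did. The averaged change with tunicamycin was -0.18 ± 0.11 (SE; 95% interval -0.42 to 0.06; adjusted p = 0.634), which makes fat-2 the member with the narrowest interval.

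Fat-3, the delta-6 desaturase that acts after FAT-2, read 9.14, 9.07 and 9.64 in wild type with vehicle and 9.23, 9.07 and 8.88 with tunicamycin. The mutant arrays read 8.96, 9.50 and 9.76 with vehicle and 8.76, 9.06 and 9.28 with tunicamycin. The treated and untreated arrays overlapped in both genotypes. The averaged change was -0.30 ± 0.19 (SE; 95% interval -0.71 to 0.11; adjusted p = 0.639).

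Fat-4, the delta-5 desaturase that makes arachidonic and eicosapentaenoic acid, had changes of opposite sign in the 2 genotypes, and neither passed. It read 7.12, 7.25 and 7.60 in wild type with vehicle and 7.67, 8.23 and 7.70 with tunicamycin, so that all treated arrays lay above all untreated ones. In manf-1 mutants the values were 7.71, 7.72 and 8.22 with vehicle and 7.88, 6.74 and 7.53 with tunicamycin, where the groups overlapped. The change was 0.54 ± 0.34 (SE; adjusted p = 0.769) in wild type and -0.50 ± 0.34 (SE; adjusted p = 0.781) in mutants. The difference between both changes, mutant minus wild type, was -1.04 ± 0.49 (SE; 95% interval -2.08 to 0.01), with a limma p of 0.051 unadjusted and 0.995 adjusted. Without the 4 arrays numbered 2 it was -0.58 ± 0.49 (SE; adjusted p = 0.997). Untreated mutants also lay above untreated wild type on all 3 arrays, by 0.56 ± 0.34 (SE; adjusted p = 0.959).

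**Figure D1:**
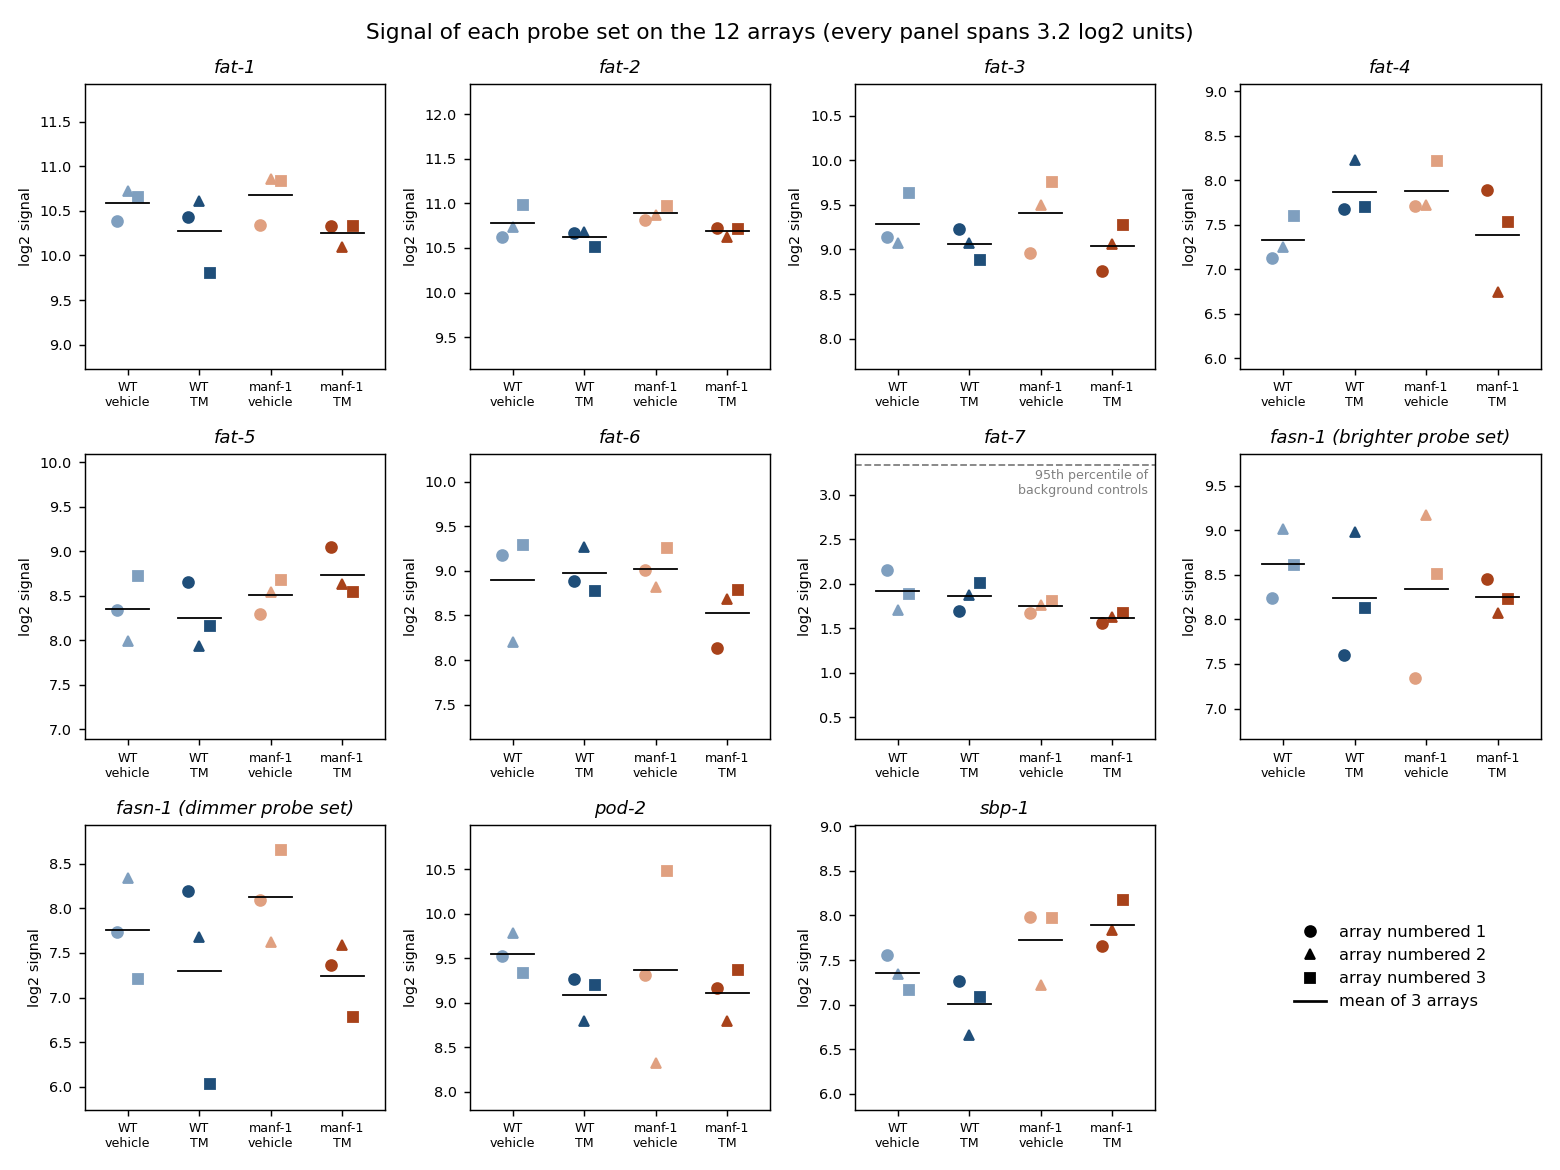
Deposited log2 signal (vertical axis) of each member probe set on each of the 12 arrays, 1 panel per probe set with a span of 3.2 log2 units, by group (horizontal axis), with each group's mean. Fat-2 is nearly level over the 4 groups, sbp-1 is higher on the 3 treated mutant arrays than on the 3 treated wild-type arrays, and fat-7 stays between 1.56 and 2.15 on all arrays.

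Among the delta-9 desaturases, which make monounsaturated fatty acids, the palmitoyl-CoA desaturase fat-5 read 8.34, 7.99 and 8.72 in wild type with vehicle and 8.66, 7.94 and 8.16 with tunicamycin. The mutant values were 8.30, 8.55 and 8.68 with vehicle and 9.04, 8.63 and 8.54 with tunicamycin. The treated and untreated arrays overlapped in both genotypes, and the averaged change was 0.06 ± 0.21 (SE; 95% interval -0.38 to 0.51; adjusted p = 0.951). Mutants exceeded wild type in fat-5 by 0.16 ± 0.29 with vehicle and by 0.48 ± 0.29 with tunicamycin (SE; adjusted p = 0.987 and 0.916).

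Fat-6, a stearoyl-CoA desaturase, read 9.18, 8.21 and 9.29 in wild type with vehicle and 8.89, 9.27 and 8.77 with tunicamycin, where 1 untreated array was far below the rest. Mutants gave 9.01, 8.82 and 9.25 with vehicle and 8.13, 8.68 and 8.79 with tunicamycin, with all treated arrays below all untreated ones. The change was 0.08 ± 0.32 (SE; adjusted p = 0.972) in wild type and -0.49 ± 0.32 (SE; 95% interval -1.17 to 0.18; adjusted p = 0.747) in mutants. Without the 4 arrays numbered 2 the wild-type change was -0.41, with the sign turned. The test of the difference between genotypes gave -0.57 ± 0.45 (SE; adjusted p = 0.995).

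Fat-7, the other stearoyl-CoA desaturase and a close paralogue of fat-6, was not above background in any group. Its signals were 2.15, 1.71 and 1.89 in wild type with vehicle, 1.70, 1.88 and 2.01 in wild type with tunicamycin, 1.67, 1.76 and 1.81 in mutants with vehicle and 1.56, 1.63 and 1.67 in mutants with tunicamycin. All 12 values lie under the background level of 3.34, so no order of the groups can be read from them and no change is given. A signal this low on an array does not show that the transcript was absent. The fat-6 probe set carries the suffix that the manufacturer gives to probes that can match several similar transcripts, as do those of pod-2 and sbp-1. Whether fat-7 RNA contributes to the fat-6 signal was not tested.

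The genes of de novo synthesis were less precisely measured than most desaturases. The carboxylase pod-2 read 9.53, 9.79 and 9.34 in wild type with vehicle and 9.26, 8.80 and 9.20 with tunicamycin, with no overlap. The mutant arrays gave 9.32, 8.32 and 10.48 with vehicle (SD 1.08) and 9.17, 8.79 and 9.37 with tunicamycin, with overlap. Its change was -0.46 ± 0.41 (SE; adjusted p = 0.846) in wild type and -0.36 ± 0.29 (SE; 95% interval -0.98 to 0.26; adjusted p = 0.739) averaged over genotypes.

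The synthase fasn-1 has 2 probe sets, and they did not follow each other. The brighter one read 8.24, 9.01 and 8.61 in wild type with vehicle, 7.60, 8.98 and 8.13 in wild type with tunicamycin, 7.34, 9.17 and 8.51 in mutants with vehicle and 8.45, 8.08 and 8.23 in mutants with tunicamycin. The dimmer one read 7.73, 8.34 and 7.20, then 8.19, 7.68 and 6.03, then 8.09, 7.63 and 8.65, and last 7.37, 7.59 and 6.78 in the same order of groups. Over the 12 arrays the Pearson correlation of both was 0.02, as a description of arrays that fall into 4 groups. The averaged change with tunicamycin was -0.24 ± 0.31 (SE; 95% interval -0.91 to 0.43; adjusted p = 0.862) for the brighter and -0.67 ± 0.36 (SE; 95% interval -1.44 to 0.10; adjusted p = 0.544) for the dimmer. The dimmer probe set's interval reaches past 2-fold, so the statement that all 9 genes stay within 2-fold holds for fasn-1 by its brighter probe set only. The probe set with the higher mean stood for a gene with several.

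Sbp-1, the regulator, read 7.56, 7.34 and 7.17 in wild type with vehicle and 7.26, 6.66 and 7.09 with tunicamycin. In mutants the signals were 7.99, 7.22 and 7.97 with vehicle and 7.66, 7.83 and 8.18 with tunicamycin. With drug all 3 mutant arrays lay above all 3 wild-type arrays, and with vehicle the genotypes overlapped through 1 mutant array. The log2 change of sbp-1 with tunicamycin, averaged over genotypes, was -0.09 ± 0.23 (SE; 95% interval -0.58 to 0.39; adjusted p = 0.934).

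Counted over the members, tunicamycin gave 7 of 9 log2 changes below 0 in wild type, in mutants and on average, with medians of -0.23, -0.26 and -0.21. Over all tested probe sets the medians were -0.03, -0.02 and -0.02. The comparisons share arrays, so the 3 counts are not independent. Of all tested probe sets 0.394% passed the adjusted threshold in wild type, 1.07% in mutants and 1.9% on average, where 172 rose and 108 fell, against 0 of the 9 members each time. At an unadjusted p under 0.05 the shares were 8.02%, 8.89% and 11.2% of all probe sets, against 0, 0 and 1 member, which was fat-1. The 3 treated and 3 untreated arrays did not overlap for 2 members in wild type (fat-4 higher, pod-2 lower) and for 3 in mutants (fat-1, fat-2 and fat-6, all lower), beside 10.9% and 16.1% of all tested probe sets. The dimmer fasn-1 probe set, which does not enter these counts, was also lower without overlap in mutants.

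**Figure D2:**
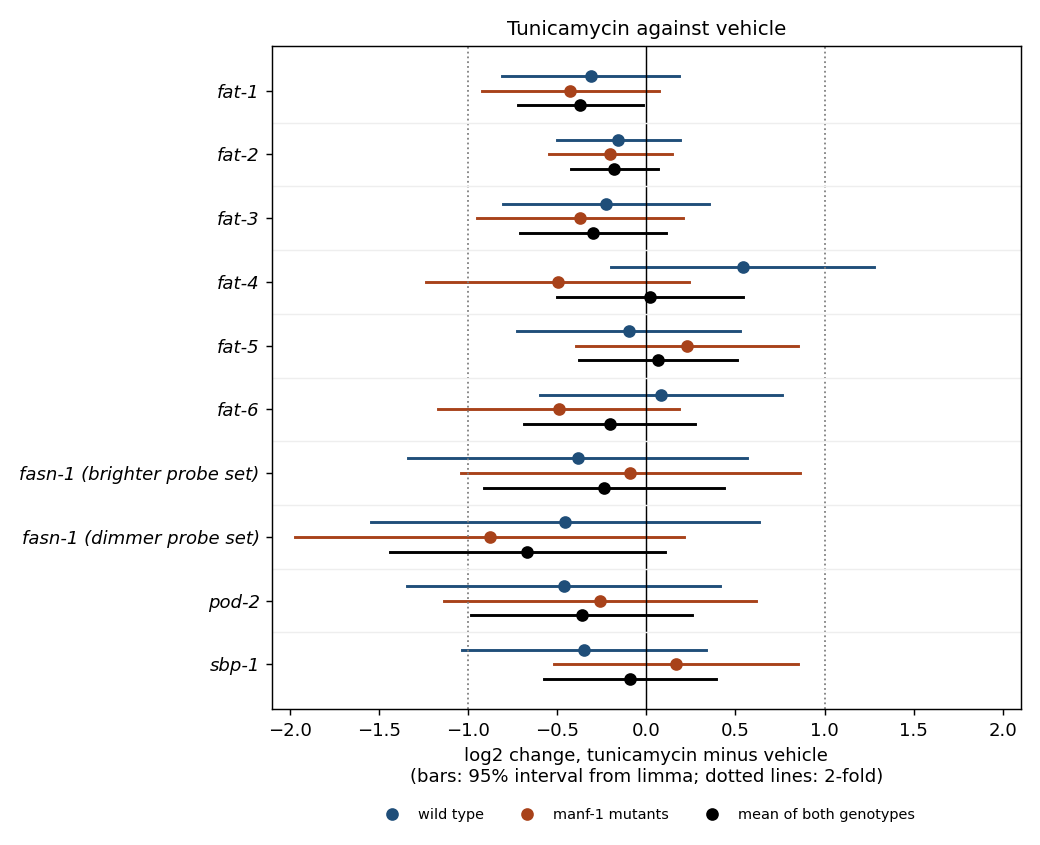
Log2 change with tunicamycin (horizontal axis) of each tested member probe set in wild type, in mutants and averaged, as points with limma's 95% intervals; dotted lines mark 2-fold. The averaged intervals of all probe sets but the dimmer one of fasn-1 lie between the dotted lines.

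The intervals limit what these arrays allow. Averaged over genotypes, a fall of fat-2 by more than 0.42 or a rise by more than 0.06 on the log2 scale lies outside its interval. For fat-5 the bounds were -0.38 and 0.51, for fat-4 -0.50 and 0.54, for sbp-1 -0.58 and 0.39 and for fat-6 -0.68 and 0.27. Without the 4 arrays numbered 2 the interval of fat-6 reached past 2-fold (change -0.54), and leaving out single arrays of every group took that of pod-2, fasn-1 or both past it. In a single genotype, where 3 arrays stand against 3, the intervals of 5 of the 9 members lay within 2-fold in wild type and of 5 in mutants. Those of fasn-1, pod-2 and fat-4 reached past it in both.

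In the comparison of genotypes averaged over treatments sbp-1 had the largest difference among the 9 genes. Mutants exceeded wild type by 0.37 ± 0.32 with vehicle (SE; adjusted p = 0.974) and by 0.89 ± 0.32 with tunicamycin (SE; 95% interval 0.20 to 1.57), with a limma p of 0.0149 unadjusted and 0.79 adjusted. Averaged over treatments the difference was 0.63 ± 0.23 (SE; 95% interval 0.14 to 1.11), with a limma p of 0.0147 unadjusted and 0.711 adjusted. It therefore did not pass, and the test of whether the drug response of sbp-1 differed between genotypes gave 0.52 ± 0.45 (SE; adjusted p = 0.995). The desaturases that SBP-1 is known to activate did not pass either: averaged over treatments the mutant minus wild-type difference was 0.32 ± 0.21 for fat-5 (SE; adjusted p = 0.874) and -0.15 ± 0.22 for fat-6 (SE; adjusted p = 0.939).

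None of the polyunsaturated fatty acid desaturases passed for genotype. The averaged difference was 0.03 ± 0.16 for fat-1, 0.09 ± 0.11 for fat-2, 0.05 ± 0.19 for fat-3 and 0.04 ± 0.24 for fat-4 (SE), and the 95% intervals of all 4 averages lay within 2-fold. For fat-4 the average combines differences of opposite sign, 0.56 with vehicle and -0.48 ± 0.34 with tunicamycin (SE; adjusted p = 0.934), and each of their intervals reached past 2-fold. For the synthesis enzymes the averaged difference was -0.13 ± 0.31 for fasn-1 and -0.08 ± 0.29 for pod-2 (SE), with intervals also within 2-fold. The dimmer fasn-1 probe set had the other sign, 0.15 ± 0.36 (SE; adjusted p = 0.958), and its interval also lay within 2-fold. The exception among the averages of the 9 genes was sbp-1, whose interval reached a 2.16-fold excess in mutants. In a single treatment the intervals of only 5 of the 9 lay within 2-fold with vehicle and of 5 with tunicamycin.

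Few probe sets of any kind passed in these comparisons. The shares were 0.0068% for genotype with vehicle, 0.0408% with tunicamycin, 0.0136% averaged over treatments and 0.0068% for the interaction of genotype and drug, against 0 of the 9 members in each. At an unadjusted p under 0.05 they were 5.23%, 5.51%, 5.91% and 4.62%, against 0, 1, 1 and 0 members, sbp-1 both times. The genotypes did not overlap for 1 member with vehicle (fat-4) and for 1 with tunicamycin (sbp-1), beside 10.4% and 10.3% of all tested probe sets. The member medians were 0.12 with vehicle, 0.02 with tunicamycin and 0.04 averaged.

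**Figure D3:**
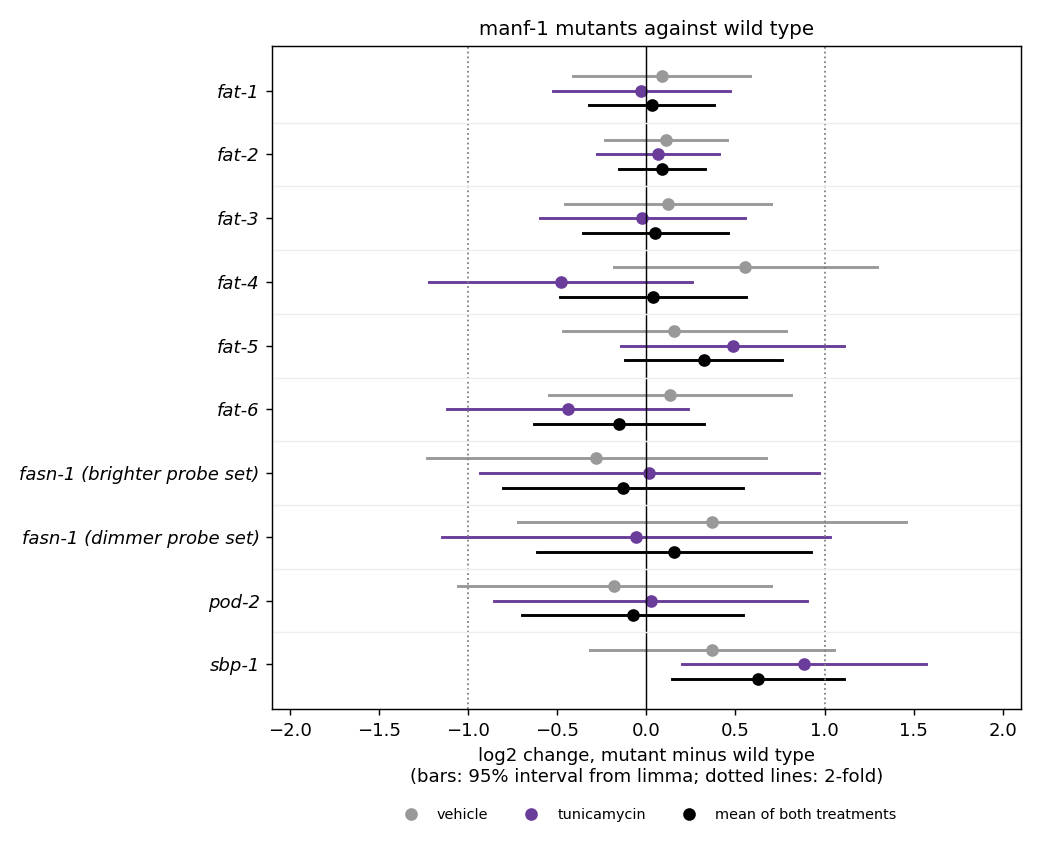
Log2 difference of manf-1 mutants minus wild type (horizontal axis) of each tested member probe set with vehicle, with tunicamycin and averaged, as points with limma's 95% intervals; dotted lines mark 2-fold. Only the sbp-1 intervals with tunicamycin and averaged leave out 0.

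Some members varied together from array to array. The highest Pearson correlations among the 36 pairs of members over the 12 arrays were 0.78 for fat-1 with fat-2, 0.77 for fat-2 with fat-3 and 0.69 for fat-1 with fat-3. After each group's mean was subtracted they were 0.66, 0.68 and 0.53, and the values farthest from 0 were then -0.77 for fasn-1 with sbp-1 and 0.71 for pod-2 with sbp-1. Fat-1 and fat-2 are neighbours in RefSeq's gene order on assembly WBcel235, and so are fat-3 and fat-4, for which the correlation was 0.22. Before that subtraction fasn-1 with sbp-1 had the lowest value, -0.46 (-0.09 without the arrays numbered 2), and pod-2 with sbp-1 had 0.41 (also 0.41 without them). Fasn-1 stands in these pairs by its brighter probe set, with which its dimmer one correlated at only 0.02. All arrays come from the same deposited table, in which the 4 arrays numbered 2 stood apart in the 3′ minus 5′ log2 difference. The correlations carry no test.

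The genes whose pattern over the 12 arrays was most like each member, by Pearson correlation, were taken as the nearest 3. They were peb-1 (0.92), sqd-1 and ctns-1 for fat-1, srab-12 (0.91), mak-1 and aldo-1 for fat-2, and B0336.12 (0.93), wago-11 and Y48E1B.3 for fat-3. For fat-4 they were C55A6.6 (0.89), rrn-3.1 and daf-19, for fat-5 fli-1 (0.94), faah-4 and coa-4, and for fat-6 fath-1 (0.89), snrp-200 and cest-26. For fasn-1 they were sms-2 (0.95), idha-1 and tlk-1, for pod-2 hum-1 (0.91), eat-6 and T12B3.3, and for sbp-1 zipt-9 (0.88), Y37D8A.2 and unc-44. Each was picked as the highest of the correlations with all other tested genes, over only 12 values. Those of fasn-1 are for its brighter probe set.

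The steps around the members were read from lists of lipid genes. For tunicamycin averaged over genotypes 1.9% of all tested probe sets passed, the share to set beside each list count below. In the acetyl-CoA and NADPH supply, with acly-1 and acly-2, 0 of 6 genes passed for tunicamycin averaged over genotypes, and the median log2 change was 0.12. In fatty acid elongation 1 of 9 tested genes passed: elo-6, an elongase of branched-chain fatty acids, fell by 0.97 on the log2 scale (SE 0.23; adjusted p = 0.0488). Elo-5, its close relative, was at -0.89 (adjusted p = 0.085) and let-767, the ketoacyl-CoA reductase of elongation, at -0.83 (adjusted p = 0.0505). The elo-6 call was lost when any 1 of 10 single arrays was left out and without the 4 arrays numbered 2. The elongation median was -0.60, with 8 of 9 values below 0, while the 4 polyunsaturated fatty acid desaturases had a median of -0.24 and the 2 tested delta-9 desaturases of -0.07. In the electron chain that serves the desaturases and the sphingolipid desaturases 0 of 5 passed, with a median of -0.21.

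Known regulators of the desaturases gave 0 calls among 15, with a median of -0.05. The nuclear receptor nhr-49, which activates fat-5, fat-6 and fat-7, was at -0.05 (adjusted p = 0.968), and the Mediator subunit mdt-15, a partner of both NHR-49 and SBP-1, at -0.30 (adjusted p = 0.638). The receptor nhr-80, a partner of NHR-49, was at 0.94 (adjusted p = 0.253). The related partner nhr-13 was above background on 5 of 12 arrays. Its group means went from 4.83 to 2.99 in wild type and from 3.37 to 2.73 in mutants. Both treated means lay under the background level of 3.34, so the size of a fall cannot be read. The averaged change of -1.24 did not pass (adjusted p = 0.0935). Nhr-49 had a mutant minus wild-type difference of 0.68 averaged over treatments (adjusted p = 0.711), but its second probe set gave -0.0031.

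The strongest lipid changes lay outside fatty acid synthesis. In phosphatidylcholine synthesis 3 of 11 genes passed: the choline kinases ckb-2 and ckb-4 rose by 4.36 ± 0.24 (SE; adjusted p = 2.73e-07) and 1.72 ± 0.28 (SE; adjusted p = 0.00421), and sams-1, which makes the methyl donor S-adenosylmethionine, fell by 1.26 on the log2 scale (SE 0.23; adjusted p = 0.0107). The other 2 tested sams-1 probe sets gave -0.96 and -1.13 and did not pass (adjusted p = 0.271 and 0.201). The calls of ckb-4 and sams-1 were lost without the 4 arrays numbered 2 (adjusted p = 0.0619 and 0.108). Ckb-2 went from 5.80 to 10.61 in wild type and from 6.85 to 10.75 in mutants (group means). The list median was -0.01. In worms, reduced sams-1 function is known to raise SBP-1 activity, which was not measured here. Whether the fall of sams-1 bears on the fat-5, fat-6, fasn-1 or pod-2 values was not tested. Fat-7 was not above background.

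In lipid transport dsc-4, a subunit of the microsomal triglyceride transfer protein complex, rose by 2.27 ± 0.31 (SE; adjusted p = 0.000878), and the fatty acid binding protein lbp-1 fell from 9.09 to 8.48 in wild type and from 8.99 to 7.19 in mutants (group means; adjusted p = 0.0388 for the averaged change), among 9 genes with a median of -0.24. Of 8 genes of triglyceride synthesis and lipid droplets plin-1, the worm perilipin, rose by 0.68 ± 0.12 (SE; adjusted p = 0.00684), and the median was 0.10. Of 22 genes of lipolysis and beta-oxidation 3 fell, with a median of -0.24: the lysosomal lipases lipl-5 and lipl-3 fell by 1.63 and 1.18 on the log2 scale (adjusted p = 0.00904 and 0.0358), and hacd-1, a hydroxyacyl-CoA dehydrogenase, fell by 0.91 (adjusted p = 0.0458). The averaged calls of lbp-1, lipl-3 and hacd-1 were lost when any 1 of 9, 11 and 11 single arrays was left out. Those of plin-1 and lipl-5 were lost without the 4 arrays numbered 2 (adjusted p = 0.0641 and 0.0863). Plin-1 also lost its call without the variance trend (adjusted p = 0.0978). Another tested probe set of plin-1 rose by 0.86 and passed (adjusted p = 0.0331). A further one gave 0.37 and did not pass (adjusted p = 0.426). Among 15 fatty acyl-CoA synthetases 0 passed by the probe set that stands for the gene, with a median of -0.18. Acs-4 was at 0.82 (adjusted p = 0.0594), while its second probe set was higher with drug and passed (adjusted p = 0.00532). In mutants alone, where 1.07% of all tested probe sets passed, lbp-1 (-1.80) and lbp-6 (-1.14) fell (adjusted p = 0.0412 and 0.0289). In wild type they were at -0.61 and -0.09 (adjusted p = 0.768 and 0.962). Neither passed for the difference between genotypes (adjusted p = 0.995 for both). Their mutant calls were lost when any 1 of 9 and of 6 single arrays was left out. In the comparison of genotypes averaged over treatments 0 genes of these lists passed, beside 0.0136% of all tested probe sets. Not passing does not show that the genotypes were alike. Hacd-1 had a mutant minus wild-type difference of 1.19 ± 0.215 (SE; adjusted p = 0.133), and acdh-1, of the same list, of -1.30 ± 0.32 (SE; adjusted p = 0.435).

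**Figure D4:**
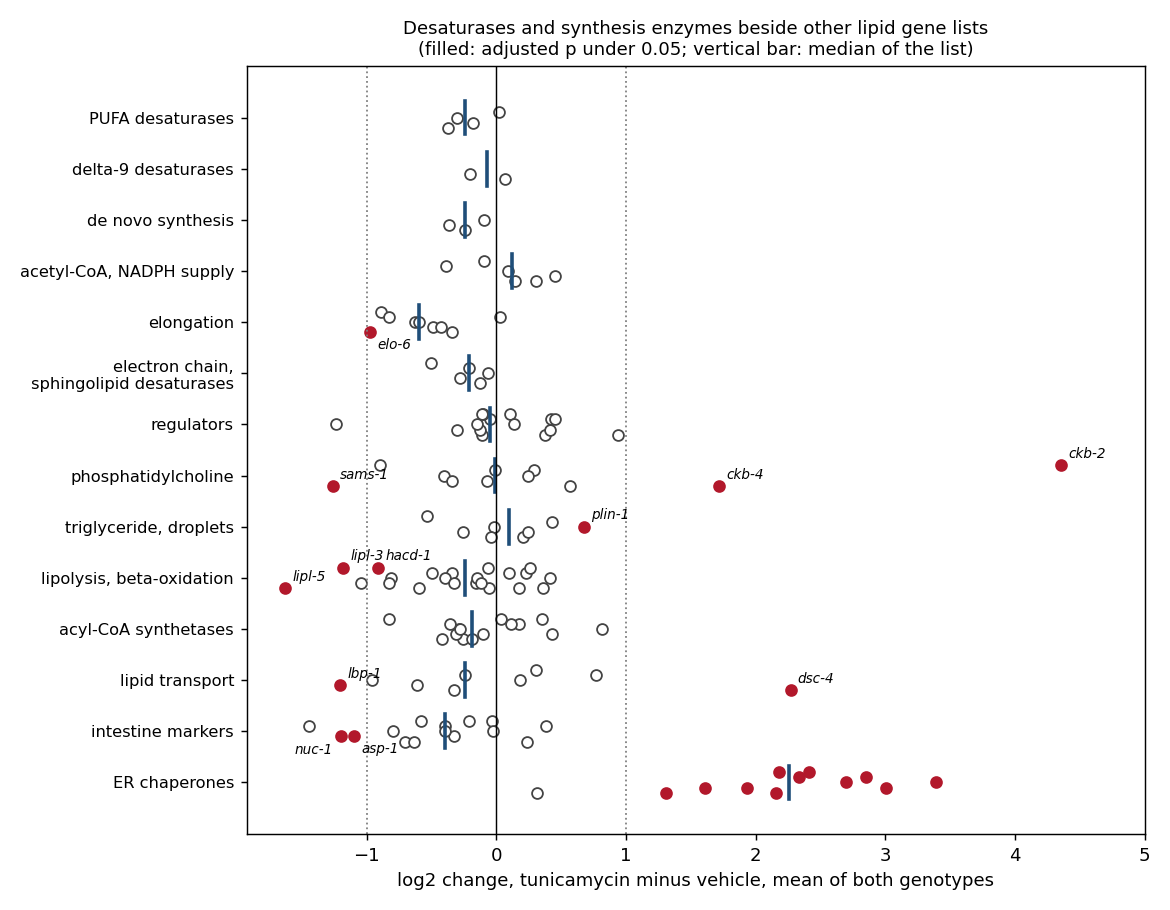
Log2 change with tunicamycin averaged over both genotypes (horizontal axis) of every tested gene of each list (rows); filled points passed an adjusted p of 0.05, vertical bars are list medians and dotted lines mark 2-fold. All points of the upper 3 rows, which hold the 9 tested members, are open and lie between the dotted lines, while ckb-2, ckb-4, dsc-4 and 11 ER chaperones lie to the right.

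Several of these enzymes are known to be made mainly in the intestine and hypodermis, and markers of both tissues were read beside them. Of 15 intestine markers 0 rose and 2 fell with tunicamycin averaged over genotypes, and 13 of the 15 values lay below 0. The protease asp-1 fell from 11.02 to 9.77 in wild type and from 10.81 to 9.88 in mutants, and the nuclease nuc-1 from 7.73 to 6.90 and from 7.49 to 5.93 (group means; adjusted p = 0.0116 and 0.0412). The intestine median was -0.23 in wild type, -0.93 in mutants and -0.40 averaged. The markers' mean signal per array was 6.86 to 7.03 in untreated and 6.54 to 6.83 in treated wild type, and 6.74 to 7.01 in untreated and 6.06 to 6.25 in treated mutants. Of 11 hypodermis markers 1 fell, with 10 of the 11 values below 0 and an averaged median of -0.56. Their mean signal per array was 7.85 to 8.27 in untreated and 7.18 to 7.67 in treated wild type, and 7.44 to 8.15 in untreated and 6.99 to 7.42 in treated mutants. How far these markers bear on the values of fat-1, fat-2 and fat-6 in mutants was not tested.

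Markers of the pharynx, body wall muscle and neurons gave medians of 0.34, -0.08 and -0.11, with 0 of 6, 0 of 7 and 0 of 8 called. Of 10 germline, embryo and adult markers on the array 5 passed the filter, with a median of 0.06 and 0 called. The intestine markers ges-1 and elt-2 were above background on all 12 arrays.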

How the data were processed

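Per the labels' protocols, Trizol RNA of whole L1 larvae was labelled with biotin from 6 ug and hybridised to 1-colour arrays. The authors deposited 1 table of log2 signals for 22625 probe sets on 12 arrays. The log2 scale was read from the values, since no header states it. Per the submitters' processing notes MAS5 was used, with no role or version, so the normalization method is not given in the sources used here. A method that compresses low signals would shrink changes of dim probe sets.

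The 77 controls were left out, no further normalization was applied, and the 14709 probe sets were kept whose signal passed the array's 40th percentile on 3 or more arrays. Genes come from the platform annotation: it gives 1 gene for 13689 of them (13649 found in the RefSeq table by number), several for 481 and none for 539. A model with 4 group means was fitted by limma 3.58.1 under R 4.3.3 (lmFit, then eBayes with a trend; two-sided); degrees of freedom were 8 residual plus 5.93 prior. For a gene with several probe sets the one with the highest mean stood for it. The fit was tested on simulated data. The members and lists were chosen with earlier results of these data known. By the rule for naming, every member probe set is reported, with its 3 most alike genes and list genes that passed or came near. The number of arrays limits the precision. Alternatives were other scalings, filters, an offset, variance models, fewer arrays, a replicate block and an unadjusted threshold. The lists are those of lipid steps, ER chaperones and 6 tissues. No sequences or coordinates are given.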

Additional observations from a re-analysis of the deposited data

How the results depend on the processing

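No member passed under any alternative: among 1296 member values 0 passed, and the smallest adjusted p was 0.281, for fat-1 with tunicamycin averaged over genotypes. In 74 of these values the sign was the other one, 14 of them without the 4 arrays numbered 2. There the vehicle genotype difference of pod-2 went from -0.18 to 0.46 and the mutant tunicamycin change of fasn-1 from -0.09 to 0.41. The averaged tunicamycin interval lay within 2-fold for all 9 genes in the reported fit, for 8 without the arrays numbered 2 (not fat-6), for 8 without the variance trend (not pod-2), and for 7 to 9 when 1 array was left out (not fasn-1 or pod-2); these counts were added after seeing the data. The averaged genotype difference of sbp-1 ranged from 0.54 to 0.75 (adjusted p from 0.512 to 0.962).

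Among the lipid genes ckb-2 and dsc-4 kept their averaged tunicamycin calls under every alternative. Ckb-4, lipl-5 and sams-1 lost theirs only without the arrays numbered 2 (adjusted p = 0.0619, 0.0863 and 0.108), and plin-1 there and without the variance trend (adjusted p = 0.0641 and 0.0978). Elo-6, hacd-1, lipl-3 and lbp-1 lost theirs in 14, 13, 13 and 12 settings, 10, 11, 11 and 9 of which left out 1 array, with adjusted p up to 0.154, 0.122, 0.127 and 0.143.

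Counts of all probe sets past the threshold moved more, and the cause was not tested. Without the 4 arrays numbered 2 they were 35 for tunicamycin in wild type (58 in the reported fit), 76 in mutants (158) and 141 averaged (280), and 0 for each genotype comparison and the interaction. With an unadjusted p and a 2-fold change they were 782, 829 and 519, then 493 for genotype with vehicle, 467 with tunicamycin, 182 averaged and 610 for the interaction. Leaving out 1 array gave 41 to 61 in wild type, 79 to 178 in mutants, 165 to 244 averaged, 0 to 2 for genotype with vehicle, 0 to 3 with tunicamycin, 1 to 3 averaged and 0 to 2 for the interaction. With only the groups compared, wild type gave 20. Genotype with tunicamycin (6) gave 1 with no filter, 11 with the filter at the 60th percentile, 1 with an offset of 9.69 before log2, 0 without the trend and 0 with only the groups compared. Genotype averaged (2) gave 1 with no filter and 1 with the offset. With the replicate number as a block the counts were 64 for tunicamycin in wild type, 189 in mutants and 313 averaged. They were 1 for genotype with vehicle, 3 with tunicamycin, 1 averaged over treatments and 2 for the interaction, and 0 members passed. The deviations of same-numbered arrays correlated over 0.1 in 7 of 18 pairs, the highest value (0.23) being between arrays numbered 2. Whether same-numbered arrays belong together was not tested further, and the reported fit did not pair them.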
